A study of Rattus norvegicus with 9 samples.

Results

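The 9 genes described here encode intermediate filament proteins of glia and neurons in rat spinal cord: Gfap, Vim, Nes, Synm, Nefl, Nefm, Nefh, Ina and Prph. They were chosen by name, as the rows of the deposited gene table that carry these symbols, which is 9 of 32623 genes. All 9 had a mean FPKM (fragments per kilobase of transcript, scaled to the library's total) of at least 1 over the 9 libraries and so were among the 14791 genes tested. Messenger RNA was sequenced from cord of female Wistar rats, 8 weeks old and weighing 200 to 230 g, with 3 libraries in each of 3 groups. Sham rats had the lamina opened with no lesion of the cord and are labelled untreated. C_Spinal rats had a cord injury and then distilled water by gavage, so that this group differed from Sham by the lesion and by the gavage. T_Spinal rats had a cord injury and then 3 mL of Modified Erxian Decoction (MED), an herbal mixture, by gavage once a day. No genetic change is named for any group. The labels do not state the interval from injury to sampling, the way and level of the injury or the length of cord taken. Nor do they say whether each library is an animal of its own, so a p-value measures the spread from library to library alone, and that spread may be technical.

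Intermediate filaments are rope-like polymers of coiled-coil proteins that give cells mechanical strength, and each cell type builds them from its own set of subunits. Astrocytes use glial fibrillary acidic protein and vimentin, with nestin and synemin as larger partners, and a rise of the first of these is a classical mark of astrocytes reacting to injury. Vimentin is also made by fibroblasts, endothelial cells and macrophages. Neurons fill their axons with neurofilaments, built from the light, medium and heavy chains together with alpha-internexin, while peripherin is typical of neurons whose axons leave the cord or enter it, such as motor and sensory neurons.

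Total counts per library ran from 57.0 to 69.8 M (M, counts in units of 1e+06). The smallest count of any of the 9 genes in any library was 953, for Ina in C_Spinal, and for counts of that size counting error is part of the precision of a single library. Markers of all the main cell types of cord were present, and the astrocyte and neuron lists are given beside the filament genes. The water channel Aqp4 of astrocytes divided libraries of the same group, with FPKM values from 72.4 to 413.9 in Sham and from 74.0 to 382.8 in T_Spinal, and its ratio to Gfap is therefore given with that split.

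In Sham cord the filament mRNAs ranked Gfap, Nefm, Nefl, Nefh, Vim, Prph, Ina, Synm and Nes by FPKM, a scale that divides by transcript length. Gfap stood at 1425 ± 5.58 (SD, n = 3), Nefm at 690.0 ± 24.8, Nefl at 583 ± 10.1 and Nefh at 419 ± 3.93. Vim followed at 114 ± 0.887, Prph at 61.9 ± 3.57, Ina at 57.9 ± 1.19, Synm at 9.39 ± 1.22 and Nes at 3.99 ± 0.480. No neighbours in this order overlapped between libraries. In C_Spinal the order was Gfap, Vim, Nefm, Nefl, Nefh, Nes, Prph, Synm and Ina, and the ranges of Nes and Prph overlapped. In T_Spinal it was Gfap, Vim, Nefm, Nefl, Nefh, Prph, Nes, Synm and Ina, with no overlap between neighbours. Vim thus moved from the fifth place in Sham to directly behind Gfap in both injured groups, and Ina moved to the last place.

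**Figure D1:**
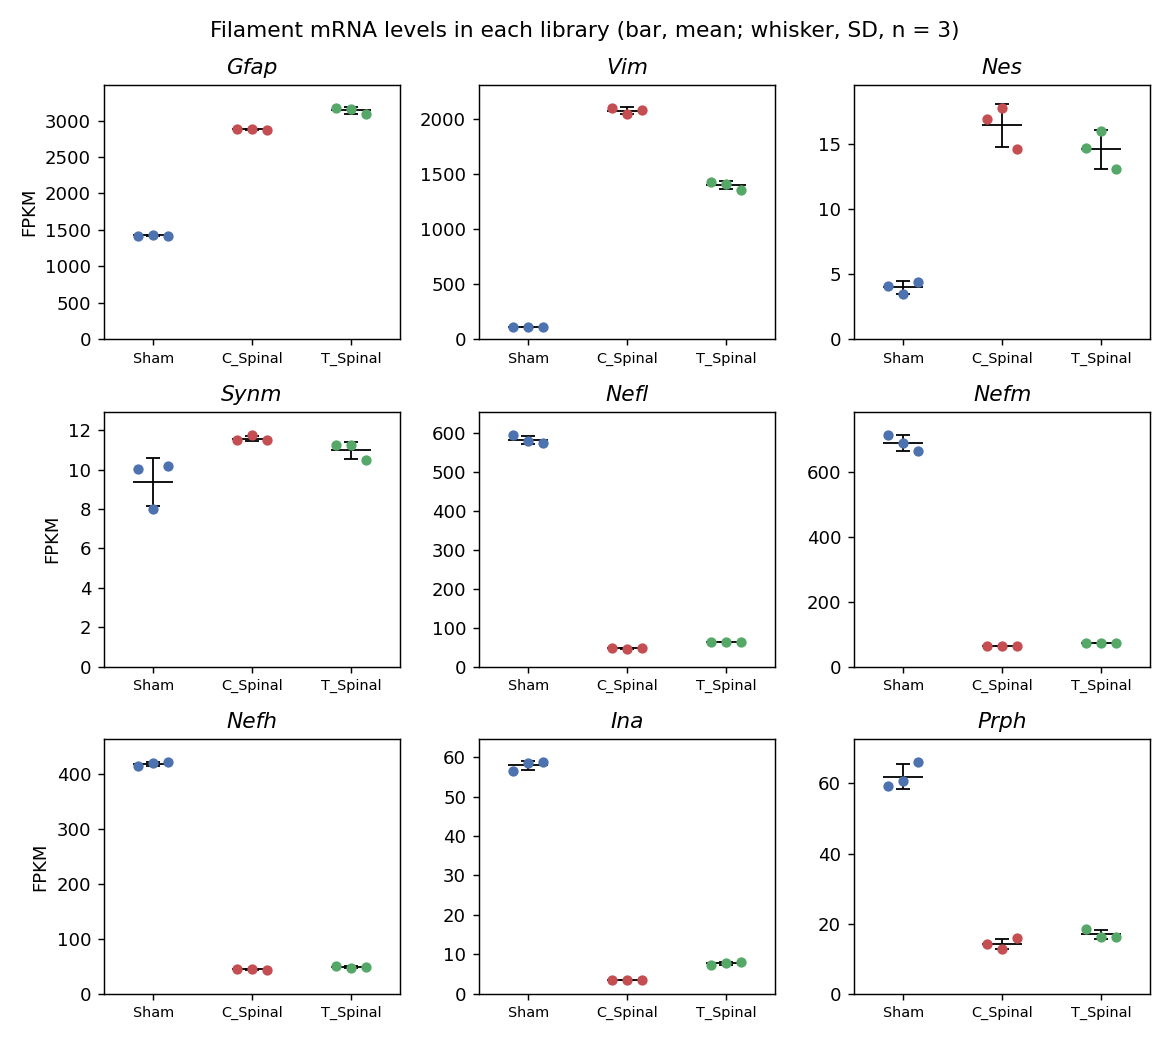
FPKM (vertical axis, from 0) of each of the 9 filament genes in each library, by group, with the mean as a bar and the SD as a whisker (n = 3). Vim stood at 114 in Sham, 2077 in C_Spinal and 1399 in T_Spinal, while Nefl stood at 583, 46.5 and 64.1.

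The neuronal genes held most filament mRNA in Sham, and Gfap and Vim made up nearly all of it in both injured groups. The 5 neuronal genes made up 53.8% ± 0.384 (SD, n = 3) of the summed FPKM of the 9 genes in Sham, 3.34% ± 0.0185 in C_Spinal and 4.39% ± 0.0878 in T_Spinal. Gfap took 42.4% ± 0.380 in Sham, 55.8% ± 0.341 in C_Spinal and 65.8% ± 0.216 in T_Spinal. Vim took 3.39% ± 0.0127, 40.3% ± 0.354 and 29.3% ± 0.252 in the same order. None of these 3 shares overlapped between any groups. The 9 genes summed to 3364 ± 26.1 FPKM in Sham, against 5157 ± 29.2 in C_Spinal and 4776 ± 83.1 in T_Spinal, and they held 1.21%, 1.58% and 1.55% of all counts.

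**Figure D2:**
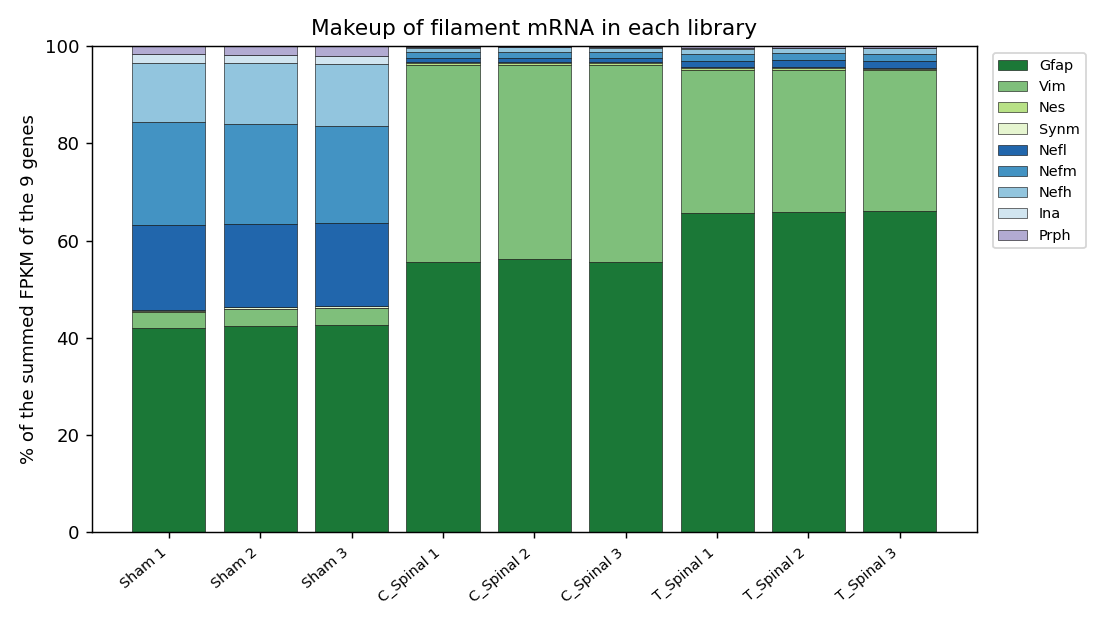
Share of each filament gene (%, vertical axis) in the summed FPKM of the 9 genes, with a bar for each library and greens for glial and blue or violet for neuronal genes. The neuronal segments take 53.5% to 54.3% of each Sham bar, 3.32% to 3.36% of each C_Spinal bar and 4.31% to 4.49% of each T_Spinal bar.

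The genes lie on 7 chromosomes in the deposited table, whose genome build is not given in the sources used here. Gfap lies on chromosome 10 (90990762 to 90999506, minus strand), Vim on 17 (80882666 to 80891212, plus), Nes on 2 (187344056 to 187352969, plus) and Synm on 1 (128692112 to 128722048, minus). Nefh lies on chromosome 14 (85181572 to 85191557, minus), Ina on 1 (266781617 to 266794431, plus) and Prph on 7 (140742418 to 140746197, plus). Nefl (44799334 to 44804574, plus) and Nefm (44855310 to 44860604, minus) are neighbours on chromosome 15, 50.7 kb apart and on opposite strands.

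Promoter sequences from RefSeq (build GRCr8) were matched by symbol for 6 of the 9 genes, which leaves Nefl, Nefm and Nefh unmatched. Of these, 4 are shown: those of Gfap and Vim, the glial genes that carried most filament mRNA and rose by very different amounts, and those of Ina and Prph, the neuronal genes with the largest and the smallest fall in C_Spinal against Sham. Each is the 250 bases before the gene's annotated start, read 5′ to 3′ on the strand of the gene, with capitals for the motif matches described after them. Gfap is chr10:88361662-88361911 (minus strand), Vim chr17:81577011-81577260 (plus), Ina chr1:255837879-255838128 (plus) and Prph chr7:132097039-132097288 (plus).
Gfap: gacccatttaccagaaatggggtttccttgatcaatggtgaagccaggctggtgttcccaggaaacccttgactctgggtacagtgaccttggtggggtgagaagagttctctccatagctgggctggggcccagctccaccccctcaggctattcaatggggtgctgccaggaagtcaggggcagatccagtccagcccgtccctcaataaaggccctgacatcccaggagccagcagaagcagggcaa
Vim: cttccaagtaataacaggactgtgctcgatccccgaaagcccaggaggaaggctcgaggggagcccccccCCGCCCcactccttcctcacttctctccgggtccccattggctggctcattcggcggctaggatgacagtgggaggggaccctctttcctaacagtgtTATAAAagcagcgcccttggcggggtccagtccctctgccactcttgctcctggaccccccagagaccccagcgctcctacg
Ina: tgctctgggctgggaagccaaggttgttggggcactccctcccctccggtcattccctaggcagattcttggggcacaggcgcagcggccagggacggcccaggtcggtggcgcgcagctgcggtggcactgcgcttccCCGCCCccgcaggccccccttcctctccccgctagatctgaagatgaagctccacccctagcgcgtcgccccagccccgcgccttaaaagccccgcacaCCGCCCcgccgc
Prph: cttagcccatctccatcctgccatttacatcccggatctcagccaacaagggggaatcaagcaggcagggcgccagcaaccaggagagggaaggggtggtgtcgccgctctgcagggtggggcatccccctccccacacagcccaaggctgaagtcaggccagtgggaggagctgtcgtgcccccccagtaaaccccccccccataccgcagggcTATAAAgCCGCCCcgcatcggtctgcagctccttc

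A window of 300 bases, 250 before to 50 after the start, was searched on both strands for 4 motifs. The TATA box (TATAAA), where the basal transcription machinery can be placed, was in 2 of the 6 windows, Vim from base -82 to -77 and Prph from -35 to -30, against 14.2% of 33469 promoters. The GC box (GGGCGG) was in 4 of the 6, Vim, Nes, Ina and Prph, against 33.1% of promoters, and the Prph window held a further match at bases 1 to 6, past the stretch shown. The STAT palindrome (TTCNNNGAA) and the AP-1 site (TGANTCA) were in 0 of the 6 windows, against 8.87% and 7.33% of promoters. These matches describe letters in a window only.

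C_Spinal was compared with Sham to ask how the injured cord of rats given water differed from intact cord. Gfap, Vim and Nes rose, all 5 neuronal filament genes fell, and Synm did not pass the test. With edgeR's quasi-likelihood test and Benjamini-Hochberg adjustment over all genes tested, 8 of the 9 genes were called at an adjusted p below 0.05, where 75.4% of all tested genes were called (38.1% higher and 37.4% lower). The groups did not overlap in FPKM for 9 of the 9 genes, against 79.5% of all tested genes. The median log2 fold change of the 9 genes was -2.24, against 0.016 over all tested genes. A share called close to the background is no result about the set. In bulk RNA, fewer cells of a type and less RNA in each cell cannot be told apart.

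**Figure D3:**
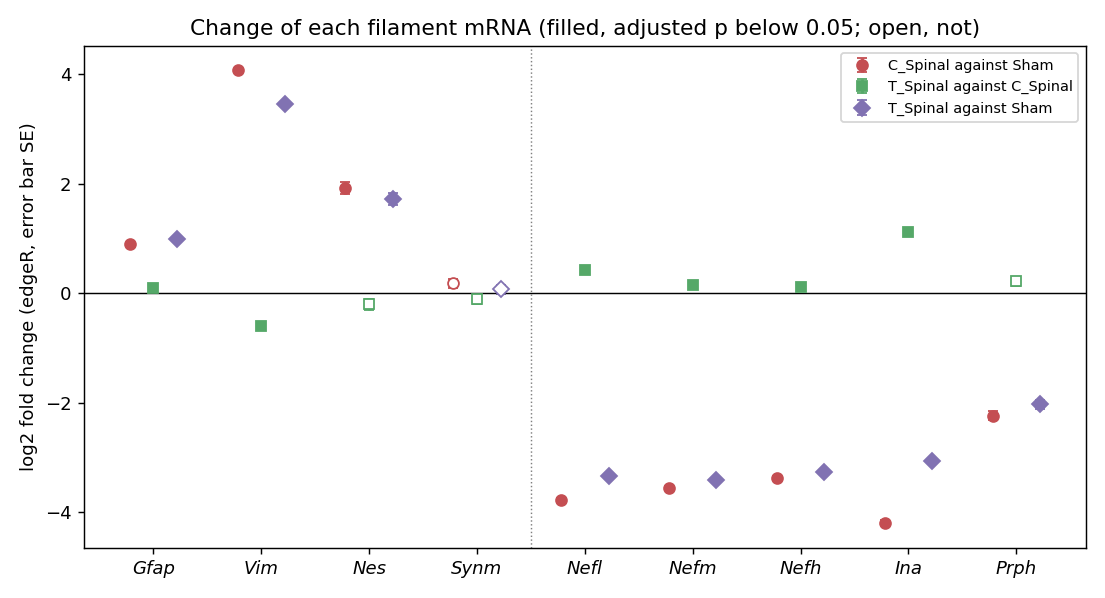
Log2 fold change (vertical axis, edgeR, bars for SE) of each filament gene in the 3 comparisons, with filled symbols for adjusted p below 0.05 and the dotted line between glial and neuronal genes. The neuronal genes lie between -4.19 and -2.03 in both comparisons with Sham and between 0.11 and 1.12 in T_Spinal against C_Spinal.

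Vim, the most widely expressed of these filament proteins, rose most. Its FPKM was 115, 115 and 113 in the Sham libraries, 2100.2, 2045 and 2086 in C_Spinal and 1428, 1409.5 and 1359 in T_Spinal. The 3 groups were fully apart, with Sham lowest and C_Spinal highest. In C_Spinal against Sham it rose by 4.06 on the log2 scale (SE 0.0305, adjusted p = 1.98e-13 by edgeR), which is 16.7-fold, and 2.26% of tested genes had a larger absolute change.

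Gfap, the main filament protein of astrocytes, had FPKM values of 1421, 1431 and 1423 in Sham, 2887, 2885 and 2868 in C_Spinal and 3172, 3165 and 3089 in T_Spinal. The libraries of each group lay close together and the groups did not overlap. Gfap rose by 0.89 on the log2 scale (SE 0.0200, adjusted p = 5.25e-11 by edgeR), or 1.86-fold. The ratio of mean FPKM is larger, with C_Spinal at 202% of Sham, because the fold from edgeR is scaled by TMM (a trimmed mean of log ratios between libraries) and FPKM is not. Of tested genes, 37.7% had a larger absolute change than Gfap.

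Nes, a filament protein of neural progenitors and of some reactive astrocytes, was low throughout, at 4.10, 3.47 and 4.40 FPKM in Sham, 16.9, 17.7 and 14.6 in C_Spinal and 14.7, 16.0 and 13.0 in T_Spinal. All 6 libraries of injured cord lay above all Sham libraries. Nes rose by 1.92 on the log2 scale (SE 0.109, adjusted p = 6.21e-08 by edgeR) in C_Spinal. Synm, a large filament protein that joins vimentin and desmin networks to the cell's anchoring sites, was at 10.03, 7.99 and 10.2 FPKM in Sham, 11.5, 11.7 and 11.5 in C_Spinal and 11.2, 11.2 and 10.5 in T_Spinal. Its log2 difference of C_Spinal from Sham was 0.18 (SE 0.0801, adjusted p = 0.0645 by edgeR), with Sham replicate 2 the lowest library. The adjusted p ranged from 0.00598 to 0.333 over the alternatives, and 6 of 18 gave a call, among them without Sham replicate 1 (0.0344 by edgeR) and without Sham replicate 3 (0.0319). Without Sham replicate 2 the log2 difference was 0.076 (adjusted p = 0.147 by edgeR).

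The 3 neurofilament chains fell together. Nefl, the light chain on which the others assemble, was at 594, 580.1 and 574 FPKM in Sham, 47.5, 45.1 and 46.9 in C_Spinal and 64.0, 64.0 and 64.2 in T_Spinal. C_Spinal was lowest, T_Spinal slightly above it, and no group touched another. Nefl fell by 3.77 on the log2 scale in C_Spinal against Sham (SE 0.0318, adjusted p = 2.86e-13 by edgeR), leaving 7.98% of the Sham FPKM. Nefm, the medium chain, was at 714, 691 and 665 FPKM in Sham, 63.6, 64.5 and 63.0 in C_Spinal and 71.4, 73.0 and 72.7 in T_Spinal, and fell by 3.56 (SE 0.0349). Nefh, the heavy chain with its long phosphorylated tail, was at 414, 421 and 421 in Sham, 44.2, 44.3 and 43.8 in C_Spinal and 50.7, 46.5 and 48.9 in T_Spinal, and fell by 3.37 (SE 0.0349). Nefm and Nefh kept 9.23% and 10.5% of their Sham FPKM in C_Spinal, both above Nefl, and neither chain's groups overlapped.

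Ina fell most of the 9 genes and Prph least of the neuronal ones. Ina, the alpha-internexin gene of central neurons, was at 56.6, 58.5 and 58.7 FPKM in Sham, 3.38, 3.46 and 3.52 in C_Spinal and 7.37, 7.71 and 7.98 in T_Spinal. Its fall of 4.19 on the log2 scale (SE 0.0400, adjusted p = 2.99e-13 by edgeR) is 18.2-fold, and 2.04% of tested genes had a larger absolute change. Prph was at 59.2, 60.6 and 66.0 FPKM in Sham, 14.1, 12.9 and 15.8 in C_Spinal and 18.4, 16.2 and 16.3 in T_Spinal. The injured groups lay next to each other, with T_Spinal replicates 2 and 3 just above the highest C_Spinal library. Prph fell by 2.24 (SE 0.0836, adjusted p = 2.23e-09 by edgeR), which is 4.72-fold, and kept 23.0% of its Sham FPKM. Ina and Prph thus stood near each other in Sham and far apart in C_Spinal, at 3.45 ± 0.0688 and 14.3 ± 1.45 FPKM (SD, n = 3).

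Ratios within a library do not depend on the scaling between libraries. They were compared for 14 gene pairs in the 3 comparisons, 42 two-sided exact permutation tests over 3 against 3 libraries, where the smallest p possible is 0.1 and no test can pass 0.05. In 33 of the 42 the groups did not overlap, each with exact permutation p = 0.1 (0.127 after adjustment over the 42 tests). In Sham the ratio of Vim to Gfap was 0.0801 ± 0.000578 (SD, n = 3), against 0.721 ± 0.0107 in C_Spinal and 0.445 ± 0.00527 in T_Spinal, without overlap. The ratio of Nes to Gfap was 0.00287 ± 0.000346 in Sham and 0.00573 ± 0.000549 in C_Spinal, and that of Synm to Gfap was 0.00666 ± 0.000879 and 0.00405 ± 4.59e-05, both without overlap between Sham and C_Spinal.

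Among the neuronal subunits the makeup also differed between Sham and C_Spinal. Relative to Nefl, Nefm stood at 1.18 ± 0.0232 (SD, n = 3) in Sham and 1.37 ± 0.0511 in C_Spinal, and Nefh at 0.719 ± 0.0190 and 0.949 ± 0.0289. Ina went the other way, at 0.0996 ± 0.00371 of Nefl in Sham and 0.0763 ± 0.00288 in C_Spinal. The log2 difference for Ina was -0.38 with FPKM + 0.1 and -0.11 with FPKM + 1. Prph stood at 0.107 ± 0.00778 and 0.308 ± 0.0266 of Nefl. None of these 4 ratios overlapped between the 2 groups (exact permutation p = 0.1 each, the smallest possible).

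**Figure D4:**
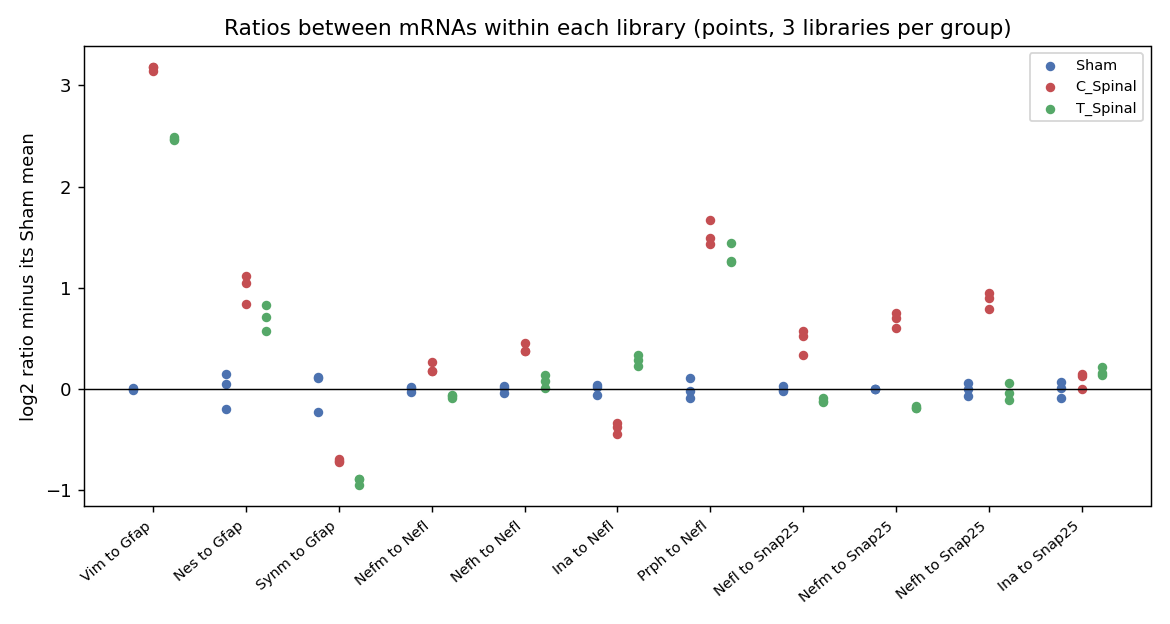
Log2 ratio of FPKM between gene pairs in each library minus the mean of the Sham libraries (vertical axis), with a point for each of 3 libraries per group. Vim to Gfap and Prph to Nefl stand above Sham in both injured groups, while Nefl, Nefm and Nefh to Snap25 stand above all Sham libraries in C_Spinal and not in T_Spinal.

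Markers of other cell types moved with these genes, and their part in the changes was not tested. All 10 neuron markers fell in C_Spinal (log2 fold changes from -4.58 to -2.25, median -3.95), and their summed FPKM ran from 1066 to 1079 in Sham, 90.9 to 93.4 in C_Spinal and 164 to 175 in T_Spinal. Nefl fell more than 4 of these markers and less than 6, Nefm and Nefh more than 3 and less than 7, Ina more than 6 and less than 4, and Prph less than all 10. The margin between Prph and the nearest marker, Eno2 at -2.25, was within the SE. Relative to Snap25, a protein of transmitter release, Nefl stood at 1.06 ± 0.0212 in Sham and 1.48 ± 0.125 in C_Spinal, Nefm at 1.26 ± 0.00187 and 2.02 ± 0.101, and Nefh at 0.762 ± 0.0337 and 1.40 ± 0.0786, each without overlap (exact permutation p = 0.1). Ina kept overlapping ratios to Snap25, 0.106 ± 0.00574 and 0.113 ± 0.00642 (exact permutation p = 0.3).

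Prph, typical of motor and sensory neurons, was read beside the markers of both. The 3 tested motor neuron genes of 6, all of acetylcholine handling, fell (median -2.96 on the log2 scale). Chat was at -3.36 (SE 0.241), Slc5a7 at -2.96 (SE 0.129) and Slc18a3 at -2.06 (SE 0.0905). Prph, at -2.24, thus fell less than Chat and Slc5a7 and more than Slc18a3. The list's summed FPKM ran from 34.9 to 36.3 in Sham, 5.59 to 6.81 in C_Spinal and 7.62 to 9.30 in T_Spinal. The ratio of Prph to Chat was 5.95 ± 0.175 (SD, n = 3) in Sham and 12.8 ± 3.86 in C_Spinal, without overlap (exact permutation p = 0.1). Its log2 difference was 1.06 with FPKM + 0.1 and 0.40 with FPKM + 1. Chat stood at only 0.858 to 1.55 FPKM in C_Spinal, and no ratio of Prph to Slc5a7 or Slc18a3 was computed. Of 8 sensory ganglion markers 3 were tested: Tac1 and Calca, which encode sensory neuropeptides, fell, and Avil rose. The list's summed FPKM ran from 44.9 to 46.7, 14.96 to 18.3 and 24.5 to 27.0 in Sham, C_Spinal and T_Spinal, and the defining ganglion genes Scn10a and Mrgprd stayed below 0.1 FPKM in all 9 libraries.

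The rise of Gfap was not shared by most astrocyte markers. Of 10 astrocyte genes 1 rose in C_Spinal, the gap junction gene Gja1, 6 fell and 3 were not called, with a median log2 fold change of -0.55 and a summed FPKM from 4075 to 4329 in Sham, 3403 to 3459 in C_Spinal and 3483 to 3837 in T_Spinal. Gfap, Vim and Nes had higher log2 fold changes than all 10, and Synm than 9 of the 10. The margin of Gfap over Aqp4, at 0.52 (SE 0.747) with divided Sham libraries, was within the SE of Aqp4. That of Synm over Gja1, at 0.17, was within the SE of Synm. Another glutamate transporter gene of the list, Slc1a3, varied widely within C_Spinal and T_Spinal, at 24.4 ± 14.4 and 43.1 ± 25.2 FPKM. The glutamate transporter Slc1a2 fell most, by 2.02 (SE 0.0644, adjusted p = 6.91e-10 by edgeR). Gfap stood at 9.51 ± 0.671 (SD, n = 3) times Slc1a2 in Sham, against 71.3 ± 4.36 in C_Spinal and 43.7 ± 2.96 in T_Spinal, with no overlap between groups. The ratio of Gfap to Aqp4 overlapped in all comparisons, at 3.44 to 19.6 in Sham, 9.39 to 10.1 in C_Spinal and 8.07 to 42.7 in T_Spinal, with replicate 3 lowest in both Sham and T_Spinal.

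Other cell types that make vimentin were more visible in injured cord. The 7 fibroblast and meningeal markers tested all rose (median 3.23), led by the collagens Col3a1 at 4.39 and Col1a1 at 4.19, and their summed FPKM ran from 105 to 108 in Sham, 1384 to 1410 in C_Spinal and 671 to 686 in T_Spinal. All 8 microglia and macrophage markers rose (median 3.36), with a summed FPKM of 179 to 183, 2870 to 2941 and 3122 to 3259. Of 6 endothelial genes tested, 4 rose and 1 fell (median 0.56; summed FPKM 47.4 to 49.2, 104 to 109 and 73.7 to 74.9), and Cldn5 was listed at 0.0001, the value given to a gene with no counts, in all 9 libraries. Schwann cell markers, of which 7 of 8 rose and 1 fell, had a median of 0.96 and a summed FPKM of 904 to 939, 1445 to 1465 and 514 to 521. Beside Nes, 4 of 6 ependymal genes rose and 0 fell (median 0.65), and 5 of 8 progenitor and proliferation genes rose and 2 fell (median 0.95). All 8 oligodendrocyte genes fell (median -1.89), and of 4 skeletal muscle genes 1 rose and 2 fell (median -0.77).

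Intermediate filament genes outside the set mostly rose, whereas of the 9 genes 3 rose and 5 fell. Of 12, 8 passed the minimum level, 7 rose, 0 fell and 1 was not called in C_Spinal against Sham, with a median log2 fold change of 1.13. Of all tested genes, 38.1% were called higher and 37.4% lower. The largest changes were those of the keratins of simple epithelia Krt19, at 3.47 (SE 0.328), and Krt8, at 3.19 (SE 0.294), followed by the muscle and pericyte filament gene Des at 1.70 (SE 0.0949). All 3 were at or below 2.44 FPKM in Sham. Keratin genes Krt5, Krt14 and Krt18 stayed below the minimum.

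Genes that link, fold, carry or break down filaments moved both ways. Of 18 tested, 4 rose, 11 fell and 3 were not called (median -0.61). Kif5a, the neuronal kinesin that carries neurofilaments along axons, fell by 3.67 on the log2 scale (SE 0.0351), close to Nefl, and the related Kif5c fell by 2.70 (SE 0.0276). Hspb1, a small heat shock protein that binds filaments, rose by 2.86 (SE 0.0494), from 55.6 to 439.8 FPKM. Of 8 partners of neurofilaments in axons and motor neuron disease, 1 rose, 5 fell and 2 were not called (median -1.52), led by the microtubule proteins Map2 at -2.73 (SE 0.461) and Map1b at -2.64 (SE 0.0304) and by Stmn2 at -2.52 (SE 0.0374). Map2 varied widely between the Sham libraries, at 63.3 ± 27.1 FPKM (SD, n = 3), and its margin over Map1b was within its SE.

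Signalling genes known to act on Gfap and the other glial filament genes showed 5 rises, 2 falls and 4 without a call among 11 tested (median 0.094). Socs3, the feedback inhibitor of the STAT3 pathway, rose by 3.65 on the log2 scale (SE 0.140), and Osmr, a receptor chain for oncostatin M, by 2.98 (SE 0.0921). The receptor gene Lifr fell by 1.13 (SE 0.0678). The cytokine genes Lif and Il6 stayed below the minimum level.

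T_Spinal was compared with C_Spinal to ask how injured cord differed between rats given MED and rats given water. Gfap, Nefl, Nefm, Nefh and Ina were higher with MED and Vim was lower, while Nes, Synm and Prph did not pass the test. With edgeR 6 of the 9 genes were called, 5 higher and 1 lower, where 38.6% of all tested genes were called (20.7% higher and 17.9% lower). The groups did not overlap for 8 of the 9, against 52.0% of all tested genes. The median log2 fold change was 0.11, against -0.0029 over all tested genes. Most of the differences were small beside those between injured and intact cord.

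Ina rose most, by 1.12 on the log2 scale (SE 0.0367, adjusted p = 3.39e-08 by edgeR) or 2.17-fold, and 3.18% of tested genes had a larger absolute change. Nefl rose by 0.43 (SE 0.0286, adjusted p = 3.02e-06), or 1.34-fold. Nefm rose by 0.15 (SE 0.0317, adjusted p = 0.00478) and Nefh by 0.11 (SE 0.0320, adjusted p = 0.0263), both under the difference of most tested genes, since 61.9% and 71.96% had a larger absolute change. Prph differed by 0.21 (SE 0.0810, adjusted p = 0.0625) and was not called, although its libraries did not overlap. The call of Nefh was lost in 6 of 18 alternatives, among them without C_Spinal replicate 1, 2 or 3 (adjusted p = 0.0669, 0.0537 and 0.0780) and without T_Spinal replicate 1 or 3 (0.0855 and 0.0524), by edgeR. Prph was called in 6 of 18, with its adjusted p from 0.0105 to 0.200, and without C_Spinal replicate 3 its log2 difference was 0.29 (adjusted p = 0.0199).

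The neuronal filament genes other than Ina had lower log2 fold changes in this comparison than most neuron markers. All 10 markers rose, by 0.24 to 1.46 on the log2 scale (median 1.05). Nefm, Nefh and Prph had lower log2 fold changes than all 10 and Nefl than 9 of the 10, while Ina lay above 6 and below 4. The margin between Prph and the lowest marker, Eno2 at 0.24, was within the SE. The ratio of Nefl to Snap25 was 0.983 ± 0.0157 (SD, n = 3) in T_Spinal against 1.48 ± 0.125 in C_Spinal, that of Nefm 1.11 ± 0.00567 against 2.02 ± 0.101, and that of Nefh 0.747 ± 0.0441 against 1.40 ± 0.0786, each without overlap (exact permutation p = 0.1). Ina to Snap25 stood at 0.119 ± 0.00325 against 0.113 ± 0.00642, with overlap (exact permutation p = 0.2). The Prph to Chat ratio was 7.44 ± 1.59 against 12.8 ± 3.86, without overlap (exact permutation p = 0.1), and its log2 difference was -0.76 with FPKM + 0.1 and -0.41 with FPKM + 1.

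**Figure D5:**
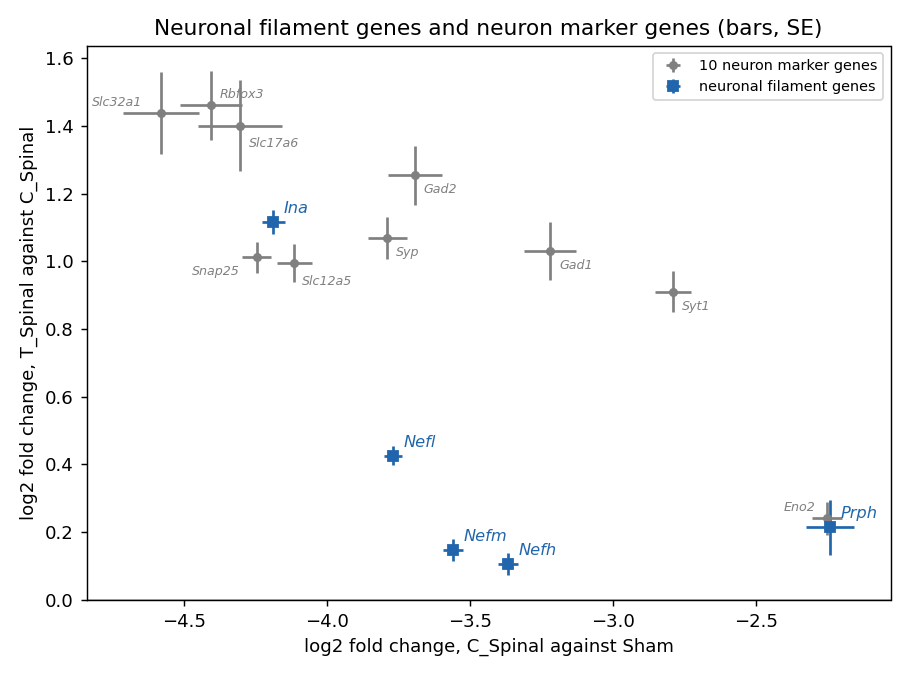
Log2 fold change in C_Spinal against Sham (horizontal axis) and in T_Spinal against C_Spinal (vertical axis) for the 5 neuronal filament genes (squares) and 10 neuron markers (circles), with SE as bars; both comparisons use the C_Spinal libraries. Ina, at -4.19 and 1.12, lies among the markers, while Nefl, Nefm and Nefh lie lower, at 0.43, 0.15 and 0.11 on the vertical axis.

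In T_Spinal the ratios to Nefl of Nefm, Nefh and Ina lay near those of Sham or past them. Nefm to Nefl was 1.13 ± 0.0124 (SD, n = 3) in T_Spinal, below both C_Spinal and Sham. Nefh to Nefl was 0.760 ± 0.0333, below C_Spinal and overlapping with Sham. Ina to Nefl was 0.121 ± 0.00463, above both other groups. Prph to Nefl was 0.266 ± 0.0202, which overlapped with C_Spinal and lay above Sham.

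Vim fell with MED by 0.61 on the log2 scale (SE 0.0270, adjusted p = 2.51e-07 by edgeR), or 1.52-fold. Gfap rose by 0.09 (SE 0.0198, adjusted p = 0.00588), or 1.06-fold, and 75.9% of tested genes had a larger absolute change. Nes differed by -0.21 (SE 0.104, adjusted p = 0.148) with overlapping groups, and Synm by -0.11 (SE 0.0800, adjusted p = 0.299). Relative to Gfap, Nes stood at 0.00467 ± 0.000416 (SD, n = 3) and Synm at 0.00353 ± 9.00e-05 in T_Spinal, both below C_Spinal without overlap (exact permutation p = 0.1). For Nes the gap was narrow, with the highest T_Spinal library at 0.00508 and the lowest C_Spinal library at 0.00512. Bringing the FPKM of all libraries to the same sum shifted the median of all genes by 0.11 in this comparison, and the share of calls that were higher was 75.1% there against 53.6% as reported. Gfap stood at 0.21 under that scaling, 0.11 above that median, and Synm changed sign, to 0.0080.

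Other cell types moved alongside Vim, and their part in its fall was not tested. All 7 fibroblast and meningeal markers fell with MED (median -1.07), led by Col3a1 at -1.30 (SE 0.0407). Of 6 endothelial genes 4 fell (median -0.56), and of 8 Schwann cell genes 7 fell (median -1.44). Of 8 microglia and macrophage markers 5 rose, 0 fell and 3 were not called (median 0.18). Of the astrocyte markers 5 rose, 2 fell and 3 were not called (median 0.17), and 3 of 6 ependymal genes fell and 0 rose (median -0.25). All 8 oligodendrocyte genes rose (median 0.35), as did 2 of 3 motor neuron genes (median 0.72). Of the 3 sensory ganglion genes 2 rose and 1 fell (median 0.51). Mki67 alone was called of the 8 progenitor and proliferation genes (median 0.12), and 1 of 4 skeletal muscle genes rose (median -0.31).

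Of 8 filament genes tested outside the set, 0 rose, 4 fell and 4 were not called (median -0.36), with Krt19 at -2.67 (SE 0.314), Krt8 at -0.86 (SE 0.267) and Des at -0.74 (SE 0.0923). Of the 18 linker, chaperone, transport and turnover genes 9 rose, 2 fell and 7 were not called (median 0.12). Among the largest rises were those of Cdk5r1, the activator of a kinase that phosphorylates neurofilaments, at 0.88 (SE 0.184), and Kif5a at 0.77 (SE 0.0320). Of the axonal and disease partners 4 rose, 3 fell and 1 was not called (median 0.22), with Mapt at 1.25 (SE 0.336), Map2 at 1.24 (SE 0.440) and Map1b at 0.41 (SE 0.0287). Mapt and Map2 varied widely between the C_Spinal libraries, at 12.4 ± 7.43 and 10.4 ± 7.06 FPKM (SD, n = 3). Of the regulators of glial filament genes 3 rose, 2 fell and 6 were not called (median 0.14), with Cntf at -0.50 (SE 0.0667), Il6st at 0.42 (SE 0.0416) and Pou3f2 at 0.40 (SE 0.137).

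The comparison of T_Spinal with Sham shows where the filament genes stood under MED relative to intact cord. It shares libraries with both other comparisons and adds no independent evidence. With edgeR 3 genes were higher, 5 lower and 1 not called, where 71.5% of all tested genes were called (35.0% higher and 36.6% lower), and the groups did not overlap for 9 of the 9, against 75.7%. The median log2 fold change was -2.03, against -0.019 over all tested genes. Vim rose by 3.46 (SE 0.0297), Nes by 1.71 (SE 0.109) and Gfap by 0.98 (SE 0.0200), and Synm differed by 0.07 (SE 0.0801, adjusted p = 0.476). Without Sham replicate 2 the Synm difference was -0.037.

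The neuronal genes stood far below Sham in T_Spinal. Nefl kept 11.0% of its Sham FPKM, Nefm 10.5%, Nefh 11.6%, Ina 13.3% and Prph 27.4%, so that the chains and Ina lay closer together than in C_Spinal, where they ran from 5.96% to 10.5%. All 5 fell, with log2 fold changes of -3.41 (SE 0.0346) for Nefm, -3.34 (SE 0.0311) for Nefl, -3.26 (SE 0.0347) for Nefh, -3.07 (SE 0.0377) for Ina and -2.03 (SE 0.0828) for Prph. All 10 neuron markers were lower than in Sham (median -2.81), and Nefl, Nefm and Nefh were further below Sham than all 10, of which the lowest was Snap25 at -3.23. The margin between Nefh and Snap25 was within the SE. Of the lists read beside Vim, 7 of 7 fibroblast markers (median 2.11) and 8 of 8 microglia and macrophage markers (median 3.73) were higher than in Sham, while of 8 Schwann cell markers 6 were lower and 1 higher (median -0.76).

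The genes whose profile over the 9 libraries lay closest to each filament gene were found by the Euclidean distance of log2(FPKM + 1), each profile set to 0 at its Sham mean. Among the genes closest to Ina were the neuronal genes Slc12a5 (distance 0.187) and Sncb (0.199), which encode a chloride exporter and beta-synuclein. Among those closest to Nefh were Cabp7 (0.420) and Nefm (0.460). Among those closest to Nefm were Scd (0.359), a fatty acid desaturase, and Nefl (0.382), and Nefl lay closest to Ckmt1 (0.351), Nefm (0.382) and Scd (0.399). Prph lay closest to Mcf2l (0.202), Mpp3 (0.229) and Klhdc8a (0.246).

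Among the glial genes, Gfap lay closest to the lysosomal membrane gene Lamp2 (0.117), the lactate dehydrogenase gene Ldha (0.126) and Sec23b (0.147). Vim lay closest to the metallothionein Mt2A (0.246), the urokinase receptor Plaur (0.328) and the annexin Anxa1 (0.381). Nes lay closest to Ca13 (0.261), Acp4 (0.263) and Naprt (0.323), and Synm to Prkra (0.154), Ppil4 (0.177) and Ruvbl1 (0.181). Between members, Nefl and Nefm (0.382) and Nefm and Nefh (0.460) were the nearest pairs, Nefl and Ina were 0.732 apart, and Gfap and Vim were 6.94 apart. Adding 1 to FPKM shrinks the changes of genes near 0, so such genes can lie close with unlike fold changes. In C_Spinal against Sham, edgeR gave Plaur (0.18 FPKM in Sham) 6.57 against 4.06 for Vim. Acp4 (0.30 in Sham) was at 3.33 against 1.92 for Nes, and Klhdc8a (0.30 in C_Spinal) at -3.94 against -2.24 for Prph. Mt2A at 3.98, Ca13 at 2.06 and Mcf2l at -2.30 lay nearer to these members. These distances describe likeness over 9 libraries of 3 groups and carry no test.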

How the data were processed

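Poly(A) RNA with an integrity number above 7.0 was made into stranded paired-end libraries, per the labels' protocols. HISAT and StringTie are named without versions in the submitters' processing notes, and neither build, annotation nor strand setting is given in the sources used here. The authors deposited whole-number counts per gene and FPKM together, and list FPKM at 0.0001 where a gene has none. The test covered the 14791 genes whose FPKM averaged 1 or more across libraries (99.7% of counts). The deposited counts were scaled by TMM and fitted with edgeR 4.0.16 (R 4.3.3, data.table, version 1.17.8) with all libraries and no covariate, two-sided, called at adjusted p below 0.05. Each SE is the absolute log2 fold change divided by the square root of the test's F. Ratios used FPKM + 0.1 for both genes, in the tests and in the means and SDs given. Alternatives used DESeq2 1.42.0, limma 3.58.1, other scalings, filters, pseudocounts, a replicate block and each library left out. The fit was checked on simulated data that held fewer changed genes and a smaller spread than these libraries. Figures used matplotlib 3.10.9 in Python 3.11.15.

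The 9 genes, the 4 lists of related genes and the 12 marker lists were chosen with earlier results of these data known. The text names all 9 genes, up to 3 genes per list with the largest absolute log2 fold change, genes used in ratios and up to 3 closest profiles; a few that the rule selects are not reported here. Names outside this rule, among them Gja1, Eno2 and the genes below the minimum level, were chosen after their values were seen.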

Additional observations from a re-analysis of the deposited data

How the results depend on the processing

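Of 27 results on single filament genes, 22 kept their direction and their side of the threshold under all 18 alternatives. The others were Synm in all 3 comparisons and Nefh and Prph in T_Spinal against C_Spinal, and the cause was not tested. Synm in T_Spinal against C_Spinal was 0.0080 after rescaling FPKM to a common sum, and -0.11 with an adjusted p of 0.0494 without Sham replicate 2. Synm in T_Spinal against Sham was -0.037 without Sham replicate 2 and was called in 3 alternatives. Over the alternatives, 8 to 9 filament genes were called in C_Spinal against Sham, 5 to 7 in T_Spinal against C_Spinal, and 8 to 9 in T_Spinal against Sham. Total-count scaling shifted the median of all genes by 0.12 in C_Spinal against Sham and 0.16 in T_Spinal against Sham, where the share of calls that were higher was 59.6% in place of 48.9%. With the replicate number as a block, in the same order, 8, 6 and 8 of the 9 genes and 10966, 5235 and 10376 of all genes were called. No pairing by number was visible. Deviations from group means correlated at -0.075 to 0.035 between same-numbered libraries and at -0.089 to 0.074 between different-numbered libraries of different groups. Of 9 libraries, 1 correlated best with its own number. These values cannot show whether same-numbered libraries were handled together. Of 42 log2 ratio differences, 4 changed sign. Ina to Snap25 in T_Spinal against C_Spinal was -0.065 and Prph to Chat in T_Spinal against Sham was -0.0025 with FPKM + 1. With each library left out, Gfap to Aqp4 in C_Spinal against Sham ranged from -0.91 (without Sham replicate 3) to 0.34 (without Sham replicate 1), with 0.25 without Sham replicate 2. Nefh to Snap25 in T_Spinal against Sham ranged from -0.073 (without T_Spinal replicate 1) to 0.012 (without T_Spinal replicate 2), with 0.0017 without Sham replicate 3. Depth limits the precision most for Ina in C_Spinal, with 953 to 1129 counts per library.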
